A study of Caenorhabditis elegans with 161 samples.

Results

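The transcripts of 10 genes that decide sex and set the activity of the X chromosome in the nematode Caenorhabditis elegans were followed through embryogenesis. The genes are xol-1, sdc-1, sdc-2, sdc-3, her-1, tra-1, tra-2, dpy-27, dpy-21 and dpy-30, chosen by name, and all 10 were found among the 20687 genes of the count tables by their RefSeq locus tags. Embryos of the 4-cell stage were taken from cut adults and grown on at a fixed temperature, and 10 whole embryos were pooled for each library. Polyadenylated RNA was counted by CEL-Seq, which tags the 3' ends of transcripts with a barcode and amplifies them linearly. The main values come from 21 repeat libraries of the mutation-accumulation line 522, 3 at each of the stages A to G. A second set of 140 libraries holds 1 library for each of 20 strains at 0, 60, 180, 270, 440, 650 and 830 min after the 4-cell stage. These strains are the laboratory strain N2 and 19 mutation-accumulation lines, 522 among them, which were carried through severe bottlenecks so that new mutations persisted. The labels do not give the sex of the embryos, and the self-fertilised brood of a hermaphrodite is known to be almost wholly hermaphrodite.

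Worms with a pair of X chromosomes develop as hermaphrodites and worms with a single X as males. The count of X chromosomes against autosomes is read early in the embryo through xol-1, a switch gene that is active in embryos with a single X and kept low by X signal elements in embryos with a pair. Where xol-1 is low, the sdc proteins bring a condensin-like complex to both X chromosomes of the hermaphrodite, which lowers transcription from each of them, and they also repress her-1. HER-1 is a secreted protein that blocks the receptor TRA-2, and TRA-2 releases TRA-1, the last transcription factor of the pathway, from the fem proteins.

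Total counts per library ran from 58543 to 623958 in the repeats, with a median of 219346, and from 5653 to 525902 in the strains, with a median of 57199. The time field of 18 of the 21 repeats contradicts their titles, so the repeats were grouped by the time point in the title, and A to G stand for the strain stages in order. By the correlation of each library with the stage means of the other strain libraries over 4131 genes, 21 of 21 repeats and 140 of 140 strain libraries lay closest to their own stage. The labels do not tie the pools to cultures of their own, so a p-value covers only the spread among these libraries, and part or all of that may be technical. Levels are CPM of the gene counts of a library, after TMM scaling unless called pooled, and a pooled level is the CPM of the summed counts of a stage, without that scaling. The median TMM factor was 1.37 at A, 1.23 at B, 1.22 at C, 1.33 at D, 0.820 at E, 0.646 at F and 0.708 at G, so TMM-scaled levels of E to G stand higher, beside those of A to D, than pooled ones. In pools of whole embryos, fewer cells that use a gene and less of its RNA per cell cannot be told apart. Libraries count 3' ends with a gene-specific yield, so levels are compared between stages of the same gene and not between genes.

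The stages of the repeats carried the marker transcripts of their age. Without TMM scaling, the summed CPM of 11 maternal germline and egg genes was 14027 to 18210 at A, 4062 to 4783 at B and 742 to 1282 at C in the repeats, and that of 6 early zygotic genes was 31.7 to 51.9 at A, 3391 to 5876 at B and 56.5 to 204 at C. Between D and E, 5 muscle genes stood at 2481 to 3077 CPM at E, against 407 to 476 CPM at D, and 4 neuron genes at 384 to 480 CPM at E, against 30.5 to 34.0 CPM at D. The 4 gut genes likewise summed to 806 to 916 CPM at E, against 199 to 295 CPM at D, and the 6 yolk protein genes to 91.2 to 1859 CPM at E, against 1051 to 3151 CPM at D. Sperm genes summed to at most 32.9 CPM in any repeat and to at most 389 CPM in any strain library, at 0 min. The part of cell makeup in the changes below was not tested.

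Of the 10 genes, 6 passed the filter on low counts in the repeats, namely sdc-1, sdc-2, sdc-3, tra-2, dpy-27 and dpy-30, and all but her-1 did so in the strains. The filter of the repeats asks for a minimum level in several libraries, and sdc-1 and sdc-3 reached it at B and C alone, where they are highest. Their calls into B and out of C, and the counts and medians of the 6 below, are thus partly bound to that filter. Other genes that are high at few stages also pass only through those stages. Calls come from edgeR's quasi-likelihood test and needed a change of 2-fold or more with an adjusted p below 0.05, by Benjamini-Hochberg over all 7584 genes tested in the repeats or all 11870 in the strains. At B against A, sdc-1, sdc-2 and sdc-3 rose and none of the 6 fell, where 16.2% of all genes tested were called higher and 14.5% lower. At C against B, 1 rose (dpy-27) and 0 fell, against 16.2% and 17.4% of all genes. At D against C, sdc-1, sdc-2 and sdc-3 fell and 0 rose, where 5.58% of all genes fell and 8.98% rose. At E against D, tra-2 fell and 0 rose (15.9% lower and 25.8% higher among all genes). At F against E, dpy-27 fell and 0 rose (15% and 22.4%), and at G against F neither direction held a call among the 6 (9.84% lower, 6.13% higher). All 6 differed over the 7 stages at an adjusted p under 0.05, which 97.4% of all genes did. The median log2 fold change of the 6 was 0.97 at B against A, 0.28 at C against B, -0.82 at D against C, -0.58 at E against D, 0.29 at F against E and 0.12 at G against F. Over all genes tested it was 0.27, -0.09, 0.14, 0.01, 0.18 and -0.04 in the same order. At the first 3 of these steps the counts in 1 direction moved by over 1.5 times with single libraries left out. Without repeat 2 of A, 2134 genes were called higher and 575 lower at B against A, and without repeat 2 of B 2282 and 696, where the full set gave 1226 and 1096. At C against B, with 1229 higher and 1320 lower in the full set, the counts were 813 and 2205 without repeat 2 of B, 747 and 1764 without repeat 1 of C and 771 and 1884 without repeat 2 of C. At D against C, 423 genes were lower in the full set, 245 without repeat 1 of C and 229 without repeat 2 of C. With single repeats left out, the all-gene median lay between 0.04 and 0.84 at B against A, -0.53 and 0.00 at C against B and 0.07 and 0.48 at D against C, so fold changes without a repeat carry that shift.

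In the strains, 9 of the 10 genes could be tested. Nearly all libraries with a count of xol-1 were at 60 to 270 min, so it passed the filter there through the stages where it is high. At 60 against 0 min, xol-1, sdc-1, sdc-2 and sdc-3 rose and tra-1 fell, with 17.6% of all genes called higher and 10.8% lower. At 180 against 60 min, sdc-3, dpy-27 and dpy-21 rose and 0 fell (18.2% and 15.2% of all genes). At 270 against 180 min, xol-1, sdc-1 and sdc-3 fell and 0 rose, where 5.36% of all genes fell and 11.7% rose. At 440 against 270 min, tra-2, xol-1 and sdc-3 fell and tra-1 rose (17.7% lower and 24.3% higher among all genes). At 650 against 440 min, sdc-1 and dpy-27 fell and tra-1 rose (12.7% and 24.7%), and at 830 against 650 min dpy-30 fell and 0 rose (12.7% and 8.6%). The median log2 fold change of the 9 was 0.98, 0.26, -0.88, -0.66, -0.23 and 0.21 in stage order, against 0.32, 0.00, 0.06, 0.00, 0.20 and -0.12 over all genes tested.

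**Figure D1:**
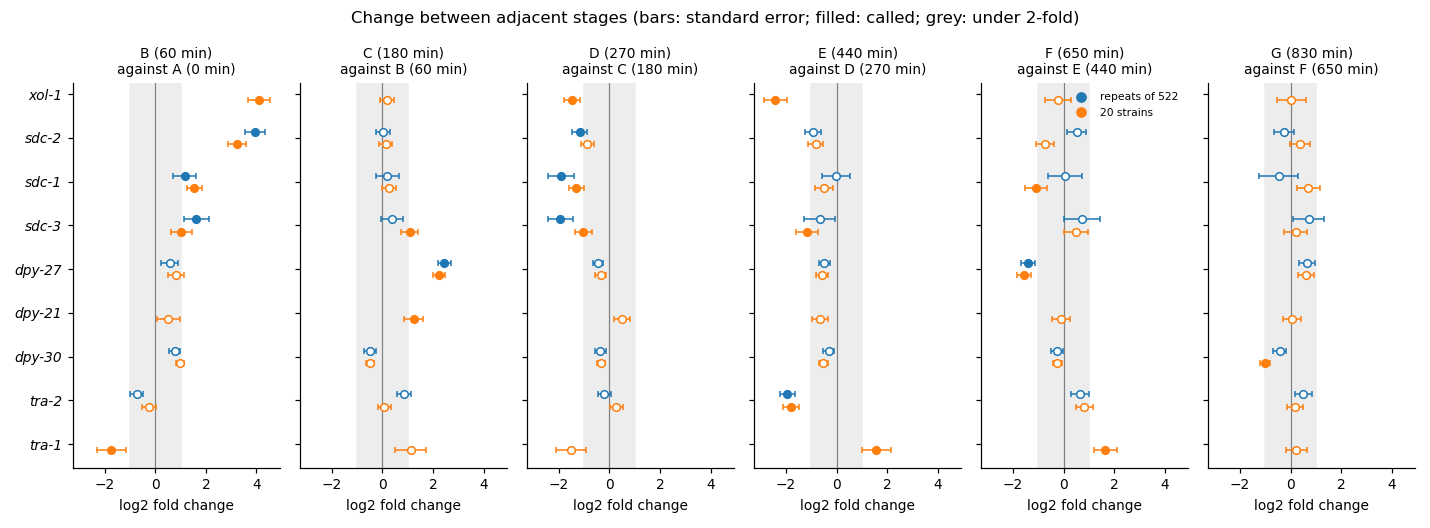
Log2 fold change of each later stage against the stage before it (x axis) for the 9 genes with a test, in the repeats of line 522 (blue, 3 libraries a stage) and the 20 strains (orange). Bars are standard errors, filled points were called, and the grey band holds changes under 2-fold. sdc-2 stands at 3.93 in the repeats and 3.23 in the strains at the first step, and dpy-27 at 2.44 and 2.24 at the next.

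The switch gene xol-1, on chromosome X, encodes the earliest target of the X signal. In the repeats its level was 0 in all 3 libraries of A, then 32.0, 26.8 and 28.3 CPM at B, 33.1, 38.997 and 39.5 CPM at C and 6.76, 5.93 and 4.84 CPM at D. It was back at 0 counts in every library of E, F and G. So xol-1 was detected at B, C and D alone in the repeats, and the levels of D lay below all those of B and C. These levels rest on 31 counts at B, 14 at C and 10 at D, and the 95% Poisson intervals of the pooled CPM were 25.3 to 52.9 at B, 24.7 to 75.7 at C and 3.63 to 13.9 at D. All such intervals and floors cover counting error only. With 3 counts summed over a stage taken as the floor for a stage at 0, the pooled level of B was 7.60 times the floor of A. The pooled level of D was 2.59 times the floor of E. Both ratios are without TMM scaling, under which the ratio of D to E would be smaller. The upper 95% limit at E, with 0 counts, was 3.60 CPM, close to the low end of the interval at D. Too few counts kept xol-1 out of the test in the repeats.

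The strains gave xol-1 a test with more libraries. It had 52 counts in 16 of 20 libraries at 60 min, against 1 count in 1 library at 0 min. The level rose (log2 fold change 4.12 ± 0.44, SE, n = 20 libraries a stage, edgeR adjusted p = 7.3e-16), in 16 strains with 0 moving the other way. It had 78 counts in 17 libraries at 180 min, and the change from 60 min was 0.18 ± 0.28 (adjusted p = 0.66). It then fell at 270 min (22 counts in 12 libraries, -1.49 ± 0.32, adjusted p = 6.5e-05, lower in 15 strains) and at 440 min (2 counts in 2 libraries, -2.41 ± 0.47, adjusted p = 3.3e-05). Single counts were left at 650 and 830 min.

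The 3 sdc genes act next. sdc-2, also on X, encodes the protein that first marks the X chromosomes of hermaphrodites for the complex, and its level was 10.5, 6.93 and 18.97 CPM at A and 178, 174 and 165 CPM at B. At C it was 172, 203 and 138 CPM, and at D 85.2, 41.5 and 79.8 CPM. The libraries of B and C overlapped, all of them lay above those of A, and all those of D lay between. At E it stood at 22.9, 49.98 and 37.2 CPM, at F at 71.9, 77.0 and 41.4 CPM and at G at 52.7, 55.4 and 12.2 CPM, and these last stages overlapped. The mean level was 172 ± 6.60 CPM at B and 12.1 ± 6.18 CPM at A (SD, n = 3 each), a log2 fold change of 3.93 ± 0.40 (SE, edgeR adjusted p = 2.3e-13).

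At C against B, sdc-2 gave 0.01 ± 0.27. The fall at D against C was -1.18 ± 0.28 (adjusted p = 0.0012), under 2-fold at -0.92 without the filter on low counts and at -0.91, -0.78 and -0.89 without repeat 1 of C, repeat 2 of C or repeat 2 of D. E against D gave -0.93 ± 0.32 (adjusted p = 0.011), short of 2-fold, and past it in 5 of the alternatives run, with the largest change, -1.33, without repeat 2 of E. In the strains sdc-2 had a median of 157 CPM at 60 min, against 10.1 CPM at 0 min, and was higher at 60 min in 19 of 20 strains (3.23 ± 0.34, adjusted p = 4.8e-16). At 270 against 180 min its log2 fold change was -0.88 ± 0.26 (adjusted p = 0.0061), short of 2-fold. In the reference annotation an antisense RNA, anr-16, overlaps 335 bases of sdc-2 exons on the other strand, and the use of strand in counting is not given in the sources used here, so reads of both cannot be told apart.

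sdc-1 (chromosome X) and sdc-3 (chromosome V) encode zinc finger proteins that work with SDC-2. sdc-3 had 49.7, 53.5 and 36.0 CPM at B, against 5.26, 18.5 and 14.2 CPM at A, with no overlap. Its level was 46.3, 54.6 and 79.0 CPM at C, and at D 12.2, 35.6 and 12.1 CPM, all below those of C. Its log2 fold changes were 1.62 ± 0.49 at B against A (adjusted p = 0.0051) and -1.94 ± 0.49 at D against C (adjusted p = 0.0021). The first call is lost without repeat 1 of B (1.47) and the second without repeat 3 of C (-1.58). From E to G sdc-3 had between 0 and 32.7 CPM in single libraries.

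sdc-1 followed the same course with more scatter. Its level was 56.8, 26.8 and 48.9 CPM at B, against 15.8, 32.3 and 9.48 CPM at A, so that repeat 2 of B, with 2 counts, lay below repeat 2 of A. The rise of 1.17 ± 0.46 (adjusted p = 0.034) was lost with DESeq2 (1.26), with no filter (1.13), with the replicate block (1.15) and without repeat 3 of A (0.79), repeat 1 of B (1.00) or repeat 3 of B (1.21). At D it had 13.5, 0 and 20.6 CPM, against 66.2, 31.2 and 79.0 CPM at C, and all libraries of D lay below those of C (-1.90 ± 0.52, adjusted p = 0.0043). That fall was not called without repeat 1 of C (-1.49) or repeat 3 of C (-1.55).

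Both genes could be read again in the strains. sdc-1 was higher at 60 than at 0 min in 18 of 20 strains (1.55 ± 0.31, edgeR adjusted p = 1.1e-05) and lower at 270 than at 180 min in 18 of 20 (-1.31 ± 0.29, adjusted p = 1.1e-04). It fell again at 650 against 440 min (-1.09 ± 0.43, adjusted p = 0.027, lower in 14 strains and higher in 3). sdc-3 rose at 60 against 0 min (1.02 ± 0.42, adjusted p = 0.041, higher in 11 strains and lower in 5) and at 180 against 60 min (1.07 ± 0.34, adjusted p = 0.0066, higher in 15 strains). It fell at 270 min (-1.03 ± 0.34, lower in 11 strains and higher in 8) and at 440 min (-1.16 ± 0.42, lower in 9 and higher in 5). With DESeq2 the sdc-3 calls at 60, 270 and 440 min were lost, and without the 4 shallow libraries its change at 60 min was 0.99.

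**Figure D2:**
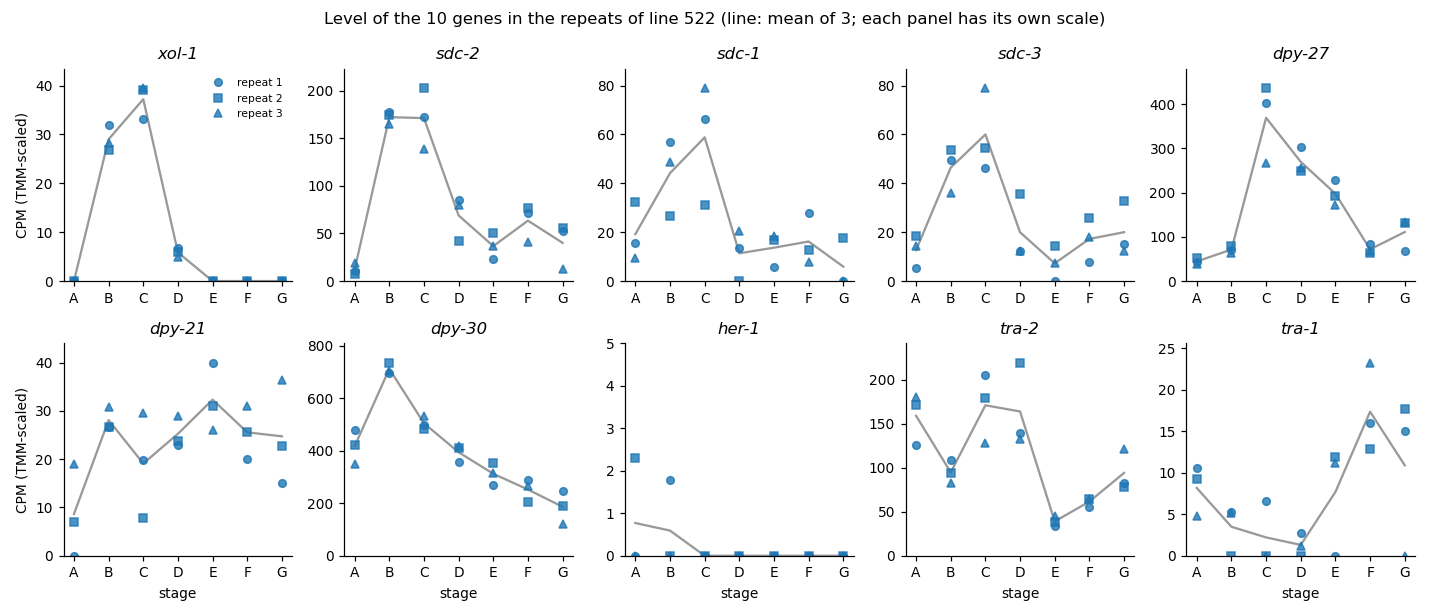
TMM-scaled CPM (y axis, linear, a scale of its own in each panel) of the 10 genes at stages A to G (x axis) in the repeats of line 522. Points are the 3 libraries of a stage and the line is their mean. xol-1 and the sdc genes are highest at B and C, dpy-27 at C, dpy-30 at B, and tra-2 is lowest at E, at 38.99 ± 5.23 CPM.

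The complex that the sdc proteins bring to X is a condensin in which DPY-27, an SMC4-type ATPase, takes the place of SMC-4. The only called rise of dpy-27 (chromosome III) in the full fit was at C against B, though all its libraries of B lay above those of A. Its level was 42.1, 53.1 and 37.9 CPM at A and 69.2, 80.3 and 64.3 CPM at B, then 404, 437 and 267 CPM at C. All libraries of C lay above all others outside D, and the lowest of C lay within the range of D, which was 303, 249 and 256 CPM. E held 229, 193 and 171 CPM, F 83.8, 64.2 and 67.2 CPM and G 67.8, 131 and 134 CPM. The mean was 369 ± 90.1 CPM at C and 71.3 ± 8.15 CPM at B (SD, n = 3 each), a log2 fold change of 2.44 ± 0.26 (SE, adjusted p = 2.0e-12). The step before gave 0.56 ± 0.32 (adjusted p = 0.17), and it was called without repeat 2 of A (1.19). D against C gave -0.46 ± 0.21 (adjusted p = 0.13) and E against D -0.48 ± 0.21 (adjusted p = 0.044, short of 2-fold). dpy-27 then fell at F against E (-1.41 ± 0.27, adjusted p = 7.7e-06), where the libraries did not overlap.

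The strains gave dpy-27 the same course from their own libraries. Its median was 328 CPM at 180 min, against 74.2 CPM at 60 min, with a rise in 20 of 20 strains (2.24 ± 0.25, edgeR adjusted p = 1.6e-14). At 650 min the median was 36.2 CPM, against 159.8 CPM at 440 min, and 19 of 20 strains were lower (-1.57 ± 0.27, adjusted p = 1.9e-07). The change of 0.81 ± 0.31 at 60 against 0 min was short of 2-fold, with 14 strains higher and 5 lower. By the stage with its highest level, 14 strains had their top at 180 min, 5 at 270 min and 1 at 440 min.

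**Figure D3:**
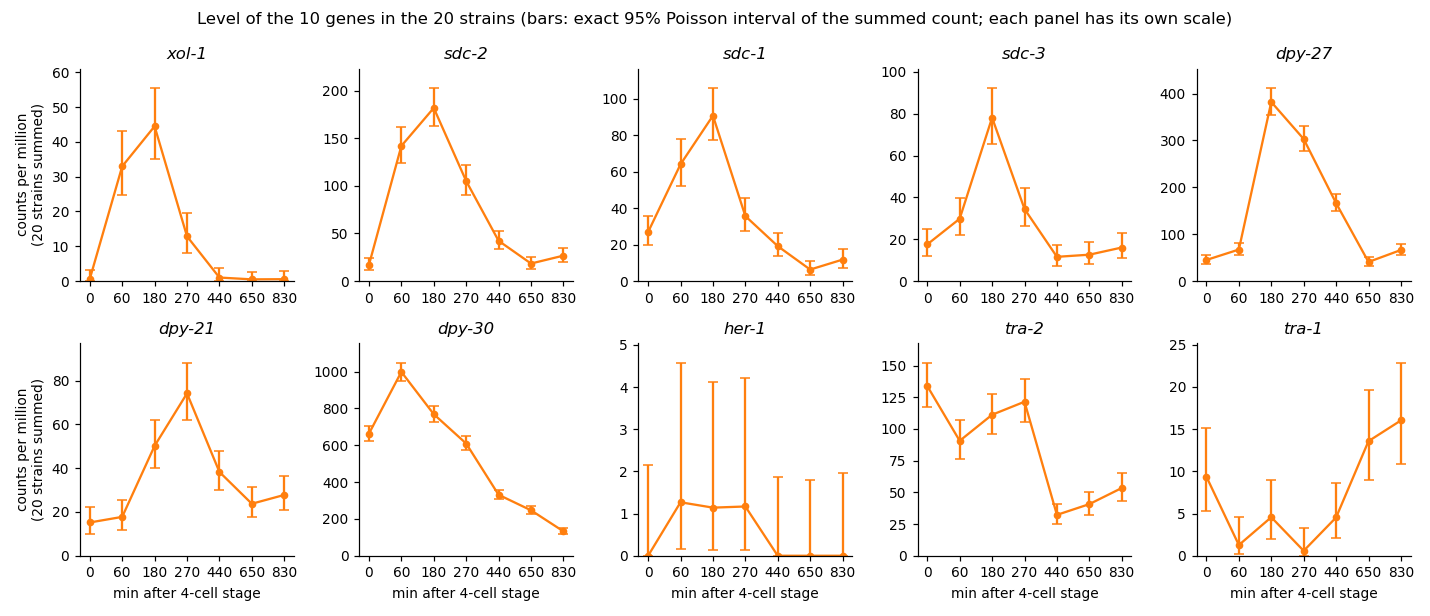
Pooled CPM of the 10 genes (y axis, linear, a scale of its own in each panel) by stage in min after the 4-cell stage (x axis), over 20 strain libraries a stage. Bars are exact 95% Poisson intervals of the summed count. dpy-27 stands at 382 (354 to 412) at 180 min and at 67.2 (55.0 to 81.3) at 60 min, and tra-2 is lowest at 440 min at 32.2 (24.8 to 41.2).

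dpy-21 and dpy-30 (both on chromosome V) act with the complex without being condensin subunits. DPY-21 is a demethylase of lysine 20 on histone H4, and DPY-30 is also a core subunit of the enzymes that methylate lysine 4 of histone H3. dpy-21 did not reach the level of the filter in enough repeats and was not tested there, with 148 counts in all, where sdc-3 was tested with 140. It had 26.6, 26.8 and 30.9 CPM at B, against 0, 6.93 and 18.97 CPM at A, without overlap, and the mean of each later stage lay between 19.1 and 32.3 CPM. In the strains dpy-21 rose at 180 against 60 min, with 88 counts in 17 libraries at 180 min and 28 counts in 12 at 60 min (1.24 ± 0.39, adjusted p = 0.0050, higher in 15 strains). Its pooled level was highest at 270 min, at 74.2 CPM (61.8 to 88.3), where the change from 180 min was 0.48 ± 0.32 (adjusted p = 0.31).

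dpy-30 had its highest mean at B, and the mean of each later stage was below that of the stage before. Its level was 478, 422 and 351 CPM at A, 694, 736 and 705 CPM at B and 496, 484 and 533 CPM at C. It stood at 356, 409 and 417 CPM at D, 269, 352 and 316 CPM at E, 287, 205 and 264 CPM at F and 248, 189 and 122 CPM at G. Every library of B lay above every library of the other stages, and C lay above D and D above E without overlap. The libraries of E and F overlapped, as did those of F and G. No single step was called in the repeats, where B against A gave 0.76 ± 0.22 (adjusted p = 0.0032, short of 2-fold). That step passed 2-fold without repeat 1 or 2 of A or repeat 2 of B, at 1.08 to 1.16. Over the 7 stages the adjusted p was 4.0e-10, with means of 712 ± 21.5 CPM at B and 186 ± 63.5 CPM at G (SD, n = 3 each).

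In the strains dpy-30 was higher at 60 than at 0 min in 20 of 20 strains (0.98 ± 0.16, adjusted p = 1.4e-07), which is just short of 2-fold and passed it with strain as a block (1.01). Each later stage was lower than the one before in 15 to 17 strains. At 830 against 650 min the fall was -1.02 ± 0.19 (adjusted p = 2.9e-06, lower in 16 strains), and it was short of 2-fold with the strain block (-0.98) and on the genes that pass filterByExpr (-0.97). At 650 against 440 min the change was -0.25 ± 0.17, where edgeR's bound on low variances set the adjusted p to 0.999, and it was 0.24 without that bound. A same-strand neighbour, rnp-1, shares 7 exon bases with dpy-30.

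The other subunits of the complex are DPY-26, DPY-28, CAPG-1 and MIX-1, all of which also serve in mitotic condensins, MIX-1 in every one of them. In the repeats, 3 of these 4 rose at B against A (capg-1 1.78 ± 0.28, dpy-26 1.43 ± 0.32 and dpy-28 1.09 ± 0.30), where 16.2% of all genes were called higher. At C against B, 1 rose (mix-1), where 16.2% of all genes also did. At D against C, 0 changed, where 5.58% of all genes were called lower and 8.98% higher. All 4 fell at E against D, as did 15.9% of all genes, and dpy-28 and mix-1 rose at G against F, as did 6.13%. The calls of dpy-26 at E (-1.003 ± 0.27) and of mix-1 at C (1.04 ± 0.22) end under RLE scaling (-0.90 and 0.99) and with DESeq2. That of dpy-26 at E also ends without repeat 1 of D (-0.87) or repeat 1 of E (-0.88). That of mix-1 at C also ends with no filter (0.88) and without any of 5 single repeats (0.56 to 0.95). The rise of dpy-28 at B ends without repeat 3 of A (0.71), and its rise at G (1.33 ± 0.42) ends with DESeq2 and without repeat 3 of F or repeat 2 of G. mix-1 at B against A gave 1.00 ± 0.23, just short of 2-fold, and was called under RLE scaling (1.08), and its rise at G (1.07 ± 0.32) ends with no filter (0.97) and without repeat 1 or 2 of F. mix-1, the SMC2-type partner of DPY-27, stood at 114, 97.6 and 74.4 CPM at E, against 553, 599 and 424 CPM at D (-2.46 ± 0.25, adjusted p = 5.8e-14). dpy-28 had 45.7, 21.4 and 18.6 CPM at E, against 105, 77.1 and 117 CPM at D (-2.02 ± 0.35, adjusted p = 7.0e-07), and capg-1 had 45.7, 59.5 and 37.2 CPM at E, against 150.1, 107 and 216 CPM at D (-1.77 ± 0.29). Of the 4, capg-1, mix-1 and dpy-28 also fell at 440 against 270 min in the strains (-1.63 ± 0.26, -2.75 ± 0.24 and -1.35 ± 0.24), and dpy-26 gave -0.99 ± 0.27, short of 2-fold.

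All 4 condensin subunits outside the complex fell at E against D as well, in the repeats (15.9% of all genes lower) and in the strains (17.7%). Of these 4, smc-4 (-1.27 ± 0.25), capg-2 (-1.24 ± 0.25) and hcp-6 (-1.42 ± 0.24) had already fallen at D against C, where 5.58% of all genes were lower, and the call of smc-4 there ends without repeat 2 of C (-0.71) or repeat 2 of D (-0.97). smc-4 (1.44 ± 0.56) and hcp-6 (1.38 ± 0.58) rose at F against E (22.4% of all genes higher). Both calls end with DESeq2, with no filter and without repeat 1 or 3 of E or of F. That of smc-4 also ends without repeat 2 of E, and that of hcp-6 with the replicate block (1.29). The log2 fold changes over these settings were 0.87 to 1.61. At E against D hcp-6, a subunit of condensin II, fell by the log2 fold change -3.79 ± 0.40 in the repeats (adjusted p = 2.3e-13). smc-4, whose place DPY-27 takes, stood at 5.71, 14.3 and 11.2 CPM at E, against 129.8, 71.2 and 128 CPM at D (-3.32 ± 0.40, adjusted p = 3.2e-11). At the same step dpy-27 gave -0.48 ± 0.21. The difference between these changes was not tested, and the pair was set side by side after its values were seen. Of the counts on dpy-27 and smc-4 together in the repeats, dpy-27 held 29.5% at A, 25.9% at B, 56.9% at C, 69.1% at D, 94.4% at E, 69.3% at F and 77.4% at G. The exact 95% binomial interval was 89.9% to 97.3% at E and 65.5% to 72.5% at D, and single libraries ran from 93.1% to 97.6% at E and from 66.7% to 77.8% at D. In the strains the share was 92.7% at 440 min (89.5% to 95.2%) and 57.7% at 270 min (54.4% to 60.9%). Single strain libraries ran from 66.7% to 100% at 440 min and from 40% to 78.6% at 270 min. The binomial intervals pool the libraries of a stage and cover counting error only. The share depends on the 3' yield of each gene, so it is read between stages and not as the ratio of the transcripts.

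**Figure D4:**
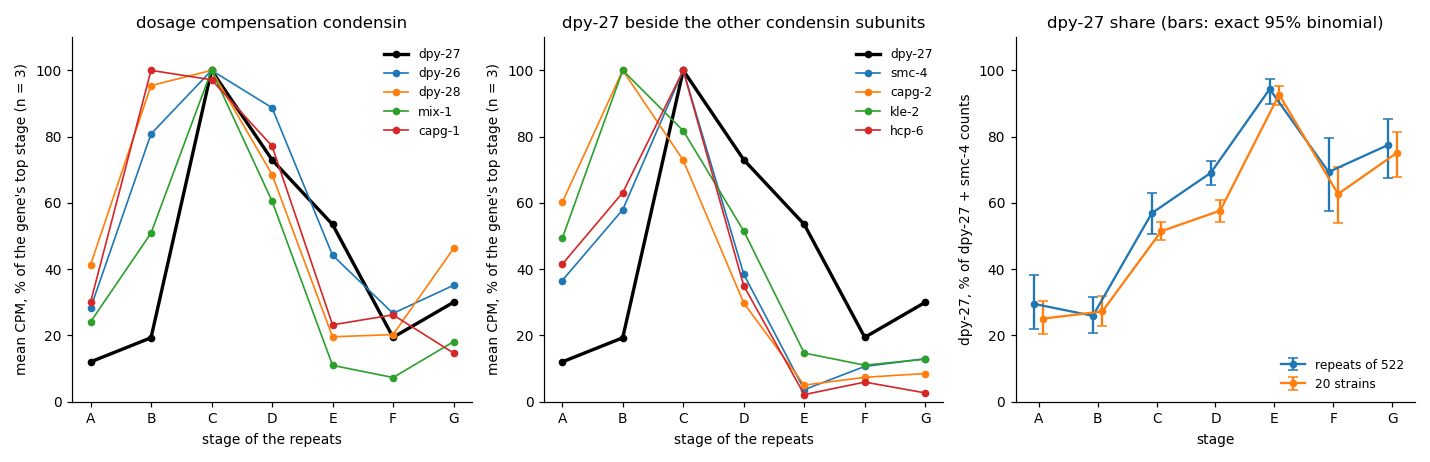
Left and middle, mean CPM of condensin genes as a percentage of each gene's top stage (y axis) at stages A to G of the repeats (n = 3). Right, dpy-27 as a percentage of dpy-27 plus smc-4 counts by stage in the repeats (blue) and strains (orange), with exact 95% binomial intervals. At E the share is 94.4% in the repeats and 92.7% in the strains.

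The branch that sets sexual fate starts with her-1, the secreted signal of males, on chromosome V. her-1 had 1 count at A and 1 count at B in the 21 repeats and 6 counts in the 140 strain libraries, 2 each at 60, 180 and 270 min. Over all 6036178 counts of the repeats this is 0.331 CPM, with an upper 95% limit of 1.20 CPM, and over the 12672121 counts of the strains it is 0.473 CPM with an upper limit of 1.03 CPM. her-1 was therefore at the edge of detection in both sets, and no difference between stages could be detected at this depth.

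Its receptor tra-2, on chromosome II, was present from the 4-cell stage. Its level was 126, 171 and 180.2 CPM at A, 108, 93.6 and 82.4 CPM at B, 205, 179 and 128 CPM at C and 139, 219.5 and 133 CPM at D. It fell to 34.3, 38.1 and 44.6 CPM at E, and then had 55.9, 64.2 and 64.6 CPM at F and 82.8, 78.1 and 122 CPM at G. Every library of E lay below every library of the other stages. At E the mean was 38.99 ± 5.23 CPM, against 164 ± 48.2 CPM at D (SD, n = 3 each), a log2 fold change of -1.94 ± 0.28 (SE, adjusted p = 1.4e-08). The step B against A gave -0.74 ± 0.25 (adjusted p = 0.013) and C against B 0.86 ± 0.28 (adjusted p = 0.011), both short of 2-fold. The second passed it without repeat 1 of B (1.02) or repeat 3 of C (1.12). In the strains tra-2 had a median of 20.8 CPM at 440 min, against 103 CPM at 270 min, and was lower in 19 strains and higher in 0 (-1.80 ± 0.30, adjusted p = 6.2e-08). At 650 against 440 min it gave 0.82 ± 0.33 (adjusted p = 0.031), short of 2-fold and higher in 17 strains. ceh-38 overlaps 26 exon bases of tra-2 on the other strand.

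tra-1, on chromosome III, encodes the zinc finger transcription factor at the end of the pathway. In the repeats it had 10.5, 9.23 and 4.74 CPM at A and no more than 6.62 CPM in any library of B, C and D. It had 0, 11.9 and 11.2 CPM at E, 15.97, 12.8 and 23.3 CPM at F and 15.1, 17.6 and 0 CPM at G. The libraries of F lay above all those of A to E, and the gene held 47 counts in all 21 libraries and was not tested there. In the strains tra-1 had 2 counts at 60 min, against 16 counts at 0 min (-1.74 ± 0.57, adjusted p = 0.0091, lower in 7 strains and equal in 13). It had 9 counts at 440 min, against 1 count at 270 min (1.58 ± 0.58, adjusted p = 0.016), and 28 counts at 650 min (1.65 ± 0.46, adjusted p = 0.0014, higher in 9 strains and lower in 1). All 3 calls were lost with DESeq2 (-1.18, 0.92 and 1.34), and the change of -1.51 ± 0.59 at 270 against 180 min (adjusted p = 0.064) was called without edgeR's bound on low variances.

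Genes that feed the switch moved early. All 4 testable signal elements in the repeats, sex-1, sea-1, sea-2 and ceh-39, rose at B against A (2.37 ± 0.25, 2.16 ± 0.27, 4.02 ± 0.40 and 2.14 ± 0.25), where 16.2% of all genes did. sex-1, a nuclear receptor that represses xol-1, fell at D against C (-2.15 ± 0.22) and at E against D (-4.85 ± 0.38, adjusted p = 1.6e-18). sea-1, a T-box factor on an autosome that activates xol-1, fell at C against B (-5.21 ± 0.51, adjusted p = 6.5e-14), together with ceh-39 (-2.09 ± 0.30), while sea-2 gave 0.46 ± 0.27. At F against E, sea-2 (1.72 ± 0.25) and sex-1 (1.60 ± 0.58) rose, and the call of sex-1 ends with no filter and without repeat 1 or 2 of E or repeat 3 of F. The 5 elements tested in the strains, fox-1 among them, all rose at 60 against 0 min, where 17.6% of all genes did, with a list median of 2.29 against 0.32 over all genes.

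Of 20 further genes of sexual fate, 11 were testable in the repeats. At B against A, tra-3 (a calpain-type protease that acts on TRA-2, 1.65 ± 0.28) and tra-4 rose, and fem-2, fem-3 and fog-1 (-2.03 ± 0.38, adjusted p = 1.0e-05) fell, against 16.2% of all genes higher and 14.5% lower. At C against B, 4 fell and 0 rose (17.4% and 16.2% of all genes), with tra-3 at -2.56 ± 0.39 (adjusted p = 9.0e-08), and fog-1's fall there is lost without repeat 1 of B (-2.92). The splicing factor genes mog-1, mog-4 and mog-5 and fog-2 fell at E against D, as did 15.9% of all genes, and no other of the 11 did. In the strains, where 16 were testable, 2 rose and 6 fell at 60 min (17.6% and 10.8% of all genes) and 2 rose and 7 fell at 180 min (18.2% and 15.2%). Among 5 testable partners of DPY-30 in H3 lysine 4 methylation, wdr-5.1 (-1.57 ± 0.33) and rbbp-5 (-1.41 ± 0.38) fell at E against D and 0 rose (15.9% lower and 25.8% higher among all genes). rbbp-5 had also fallen at B against A (-1.23 ± 0.34) and risen at C against B (1.40 ± 0.38), where cfp-1 fell (-1.31 ± 0.44). The call of rbbp-5 at B ends without repeat 1 or 2 of A or repeat 2 of B (-0.78 to -0.97), and that at C without repeat 2 of B or repeat 1 or 2 of C (0.80 to 0.95). The H4 lysine 20 methyltransferases act on the residue that DPY-21 demethylates. Of them, set-1 rose at B against A (1.20 ± 0.23), a call that ends without repeat 3 of B, at 0.95. It fell at D, E and F against the stage before, and set-4 fell at E (-1.01 ± 0.29). The calls of set-1 and set-4 at E end under RLE scaling (-0.997 and -0.90), and with DESeq2, and that of set-4 also without repeat 1 or 3 of D or repeat 1 of E (-0.90 to -0.97). That of set-1 at D ends with no filter (-0.81) and without repeat 1, 2 or 3 of C or repeat 2 of D (-0.67 to -0.90), and that at F ends without repeat 2 of F (-0.99).

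By Pearson's r of log2(CPM + 10) over the 21 repeats, the genes with the courses most like dpy-30 were snrp-3 (0.97) and snrp-27 (0.95). For dpy-27 they were eya-1 (0.92) and spig-12 (0.92), and for tra-2 rad-50 (0.88) and C09G4.4 (0.88). The sdc genes had rpb-2 (0.84) and cfim-2 (0.81) for sdc-1, Y45G5AM.5 (0.84) and jmjd-3.2 (0.84) for sdc-2, and rbm-3.2 (0.86) and phdh-1 (0.82) for sdc-3. These values describe likeness among libraries that share their stages and carry no test. Over the pooled levels of the 7 strain stages the same pairs had r between 0.81 and 0.99.

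Levels also differed between the libraries of different strains. Each strain has 1 library a stage, so a difference between strains cannot be told apart from one in how their libraries were staged or made. In a fit of stage plus strain, xol-1, sdc-2, sdc-3, tra-1, tra-2, dpy-27 and dpy-30 had an adjusted p under 0.05 for strain by edgeR, 7 of the 9 tested, where 44.2% of all 11870 genes did. The adjusted p was 0.0024 for sdc-3, 0.0046 for dpy-30, 0.0049 for sdc-2, 0.020 for tra-1, 0.025 for tra-2, 0.029 for xol-1 and 0.048 for dpy-27. It was 0.61 for sdc-1 and 0.21 for dpy-21. dpy-27 was not called on the genes that pass filterByExpr (0.12) or without the 4 shallow libraries (0.065). As a mean over the 7 stages, sdc-2 ran from 24.4 CPM in N2 to 106 CPM in line 552, with a median of 64.4 CPM and 63.7 CPM in line 522. dpy-27 ran from 50.9 CPM in line 517 to 182 CPM in line 552, with 71.1 CPM in N2 and a median of 149 CPM. For sdc-3 the range was 4.48 CPM in line 529 to 59.5 CPM in line 536, with a median of 23.04 CPM, and for dpy-30 it was 342 to 718 CPM with a median of 495 CPM. Libraries of line 529 held 11788 to 40782 counts and those of line 517 held 16504 to 49511, all below the strain median of 57199. The low ends of sdc-3 and dpy-27 therefore rest on few counts. Libraries of N2 held 32570 to 249938 counts, some of them below the strain median, so the low end of sdc-2 also rests on few counts. No strain was tested alone.

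The complex acts on chromosome X, which carries 2742 of the 20063 genes with a locus tag, so the share of nuclear gene counts on X was followed beside it. In the strains the mean share over the 7 stages, in time order, was 4.45%, 7.02%, 12.5%, 13.4%, 14.7%, 13.1% and 14.4%. At 180 min the share was 12.5 ± 0.735%, against 7.02 ± 0.583% at 60 min (SD, n = 20 each), and 20 of 20 strains were higher. At 650 min it was 13.1 ± 1.04%, against 14.7 ± 0.769% at 440 min, and 20 of 20 were lower. All 6 adjacent steps passed a two-sided sign-flip permutation test within strains with 100000 resamples, with Benjamini-Hochberg adjusted p between 1.5e-05 and 6.4e-04, and a raw p of 1e-05 is the smallest the test can give. The repeats had means of 5.30%, 7.73%, 12.8%, 12.9%, 15.3%, 14.2% and 14.2% from A to G. The direction of each step in the strains was the same without the 10 highest genes of X and the 10 highest of the autosomes, and without the strains that hold a shallow library. The share is a property of all X genes in use at a stage and does not isolate the action of the complex.

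**Figure D5:**
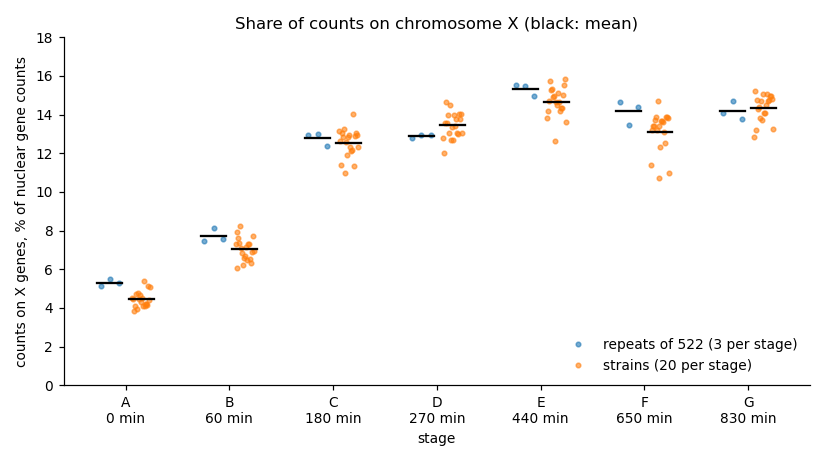
Counts on genes of chromosome X as a percentage of all nuclear gene counts (y axis) by stage (x axis) in the repeats (blue, 3 a stage) and the strains (orange, 20 a stage). Points are libraries and black bars means. The strain mean is 12.5% at 180 min and 7.02% at 60 min.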

How the data were processed

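The deposited tables hold raw counts per gene as whole numbers. Per the submitters' processing notes, reads were handled with CASAVA 1.8 and Bowtie2 2.1.0. Not given in the sources used here are the counting program, genome build, annotation and strand setting. In the repeats, 38.8% to 70.2% of reads did not align and no feature took 17.8% to 47.7% of the aligned ones, and these rows stayed out of totals and tests. By their names, 44 deposited columns hold reruns, spike-ins and line 522 carried over from the strain set, and they were not used. Symbols came from the RefSeq annotation (20063 identifiers matched, 624 did not), and exon overlaps from the WBcel235 annotation.

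Adjacent stages were compared with edgeR 4.0.16 in R 4.3.3 (quasi-likelihood, TMM, two-sided, one fit per set). The repeats used filterByExpr (minimum count 10) and the strains needed 1 count in 20 libraries. The SE is the size of the log2 fold change divided by the square root of F. Both procedures were run on simulated data for a single step of each set, with stage means flat apart from some shifted genes. That setting is simpler than these data, and its outcome is not given here. The alternatives were RLE scaling, other filters, DESeq2 1.42.0, fits of 2 groups alone, replicate or strain blocks, each repeat left out, and shallow libraries left out (under 0.25 of the median total). A fit without edgeR's bound that keeps p at or above a Poisson test was added after seeing the data. The strains pair libraries across stages, as the labels name the same strain. Deviations from stage means over 2970 genes had a median correlation of 0.079 within strains and -0.0097 between them. Over the 420 pairs of libraries within strains it ran from -0.188 to 0.654, so some libraries of the same strain deviated together.

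The 10 genes, the gene lists and the tests were chosen with earlier results of these data known. The rule for named genes takes the 10 genes, the 4 other subunits of the complex, the 2 genes of each other list with the smallest p of any adjacent step in the repeats, and the 2 genes most like each testable member. Other names follow counts of 5 or fewer or were added after their values were seen.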

Additional observations from a re-analysis of the deposited data

How the results depend on the processing

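No value of the named genes or summaries reversed under an alternative. The count of genes called moved by over 1.5 times in these cases. With all genes kept whatever their counts, 5121 were called at E against D (3161 in the reported fit), 4608 at F against E (2839) and 12344 over any stage (7390). With both groups alone in the fit, 1363 were called at C against B (2549) and 608 at D against C (1104). On the 2970 genes that pass filterByExpr in the strains, where fewer genes are tested, the counts were 906 at 60 against 0 min (3372), 1221 at 180 (3956), 544 at 270 (2023), 1140 at 440 (4985), 939 at 650 (4434) and 517 at 830 min (2526), and 1631 for strain (5252). DESeq2 called 1279 at 270 against 180 min and 1656 at 830 against 650 min. The cause of the other changes was not tested. With each repeat left out, all 36 total counts stayed within 1.5 times, but counts in 1 direction did not at B against A (1046 to 2282 higher, 575 to 1292 lower), C against B (747 to 1342 and 1182 to 2205) and D against C (611 to 922 and 229 to 436). Same-numbered repeats did not deviate together (median r -0.0038 over 63 pairs), so the replicate block is not a pairing, and with it 2294, 2521, 1088, 3142, 2802 and 1181 genes were called from B to G. Of the calls of the 10 genes in the repeats it ended that of sdc-1 at B against A. With strain as a block, the call of dpy-30 at 830 min ended and that at 60 min was gained, and no other call of the 10 genes changed. Without edgeR's bound on low variances, an alternative chosen after seeing the data, the strain counts from 60 to 830 min were 3564, 4149, 2211, 5171, 4520 and 2629. Depth limits xol-1 and tra-1 in the repeats, with 55 and 47 counts in all, and her-1 in both sets. The filter also kept dpy-21 out in the repeats, with 148 counts in all.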
